A study of Mus musculus with 4 samples.

Results

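The HoxB genes are the members of the Hox cluster on mouse chromosome 11 that also holds Hoxb6, the gene whose reporter was used to sort the cells studied here. They were taken by name, Hoxb1 to Hoxb9 and Hoxb13, and a probe was assigned to a gene through its RefSeq accession. All 10 had a probe, among 20654 genes with a probe in all, and 11 probes on 20 spots per array represented them. The cells were derived from mouse embryonic stem cells of the EB5 line carrying a Hoxb6-RFP reporter, that is, a red fluorescent protein read as a stand-in for Hoxb6. They had been differentiated until day 6 on OP9, a mouse bone marrow stromal feeder line, and sorted with an antibody to Flk-1, the VEGF receptor encoded by Kdr. Both groups were thus Flk-1-positive, of the same line, reporter, feeder and day, and 1 was positive and the other negative for RFP. Each was measured on 2 one-colour arrays. The labels do not say whether the arrays of a group came from separate cultures, whether the reporter line was 1 clone, or how the reporter was built, so the p-values below measure only the spread between these arrays.

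Hox genes encode homeodomain transcription factors that give cells a position along the head-to-tail axis. Within a cluster, genes at the low-numbered end are usually switched on earlier and further forward than those at the high-numbered end, under retinoic acid, Wnt, Fgf and Cdx input and after release from polycomb repression. In lateral plate mesoderm, the source of Flk-1-positive blood and vessel progenitors, Hoxb6 is a known marker, and Hoxb4 is known for expanding blood progenitors made from embryonic stem cells.

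Of the 10 genes, Hoxb1 to Hoxb5 and Hoxb9 were measured on every array. By the scanner's own mark, the signal of Hoxb6 and Hoxb13 was well above background on no array, and that of Hoxb7 and Hoxb8 on a single one, RFP-positive replicate 2. With the brighter Hoxb3 probe, none of the 6 measured genes differed between the fractions by more than the standard error (SE) of the fit. The dimmer Hoxb3 probe differed by −0.51 on the log2 scale (SE 0.32), and its fractions did not overlap. Among the probes used, the largest fitted difference was that of Hoxb5, 0.45. Its sign depended on RFP-positive replicate 2.

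Sorted by the start of each gene model, the gene table of assembly GRCm38.p6 lists the cluster in the order Hoxb13, Hoxb9, Hoxb8, Hoxb7, Hoxb6, Hoxb5, Hoxb3, Hoxb4, Hoxb2, Hoxb1. The 9 other entries between the ends include the microRNA genes Mir10a and Mir196a-1 and the antisense transcripts Hoxb3os and Hoxb5os, none of which had a probe. In that table the gene models of Hoxb3 and Hoxb4 overlap, so their order rests on the model starts and their probes may share transcripts. The RefSeq promoter table holds 3 of the 10 genes. The 250 bases before their annotated starts are printed here because they cover a gene with 10 spots (Hoxb1), the gene that varied most among the 6 measured on every array (Hoxb4) and a gene well above background on 1 array alone (Hoxb8). They lie on the plus strand at chr11:96365508-96365757, chr11:96318017-96318266 and chr11:96281655-96281904 of GRCm38.p6, in that order. Capitals mark matches, on either strand, to TGATNNAT, a form of the joint Pbx and Hox site, and to TTTATG, a form of the Cdx site.

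Hoxb1: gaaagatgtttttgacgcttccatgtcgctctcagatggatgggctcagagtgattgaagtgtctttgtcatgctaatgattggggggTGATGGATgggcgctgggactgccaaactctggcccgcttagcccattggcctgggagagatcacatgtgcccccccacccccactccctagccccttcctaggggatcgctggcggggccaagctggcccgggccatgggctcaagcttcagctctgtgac

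Hoxb4: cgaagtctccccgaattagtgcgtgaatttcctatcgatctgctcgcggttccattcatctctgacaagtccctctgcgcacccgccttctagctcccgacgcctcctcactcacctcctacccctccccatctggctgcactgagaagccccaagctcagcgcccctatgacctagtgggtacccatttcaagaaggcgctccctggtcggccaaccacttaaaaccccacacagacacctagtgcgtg

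Hoxb8: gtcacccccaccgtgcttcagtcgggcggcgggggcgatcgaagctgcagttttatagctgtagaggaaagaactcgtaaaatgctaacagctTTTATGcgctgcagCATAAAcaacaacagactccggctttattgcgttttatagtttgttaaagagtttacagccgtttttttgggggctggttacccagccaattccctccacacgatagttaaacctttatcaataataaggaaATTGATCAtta

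The Hoxb1 stretch held 1 match to TGATNNAT, beginning 162 bases before the start. Hoxb8 had 1 match to TGATNNAT on the minus strand, beginning 11 bases before the start, and 2 to TTTATG, 1 on each strand, beginning 157 and 143 bases before it. In the Hoxb4 stretch neither set of letters was present. Among 32851 promoters of the same length, 7.68% held TGATNNAT and 10.8% held TTTATG. The 2 motifs did not overlap where they were found, and a match describes the letters only.

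A level is the log2 of the signal over the array's 75th percentile, differences are RFP-positive minus RFP-negative, and errors after ± are SDs over 2 arrays unless named otherwise. A level is compared between arrays for 1 probe and never between probes. Across the arrays 55.2% to 59.3% of spots were well above background, and no spot was saturated. RFP-positive replicate 2 stood apart, with Pearson correlations of 0.950 to 0.964 to the other arrays over 13433 tested genes (genes are no replicates), against 0.974 to 0.982 among the other 3. The HoxB differences, and other fitted differences that it moves by more than 1.5 times, are therefore also given without it. Kdr, the gene of the sorted receptor, was strong in both fractions. It stood at 4.18 and 4.33 on the RFP-negative and 4.41 and 4.36 on the RFP-positive arrays. Of 4 markers of Flk-1-positive mesoderm, Kdr among them, 3 were higher in RFP-positive samples with no overlap. The other, Etv2, read 3.77 and 3.10 against 3.21 and 2.22. Of 4 endothelial markers 3 were also higher with no overlap, while Tie1 read 1.84 and 1.71 against 1.83 and 1.47. Markers of OP9 stroma and of adipocytes moved with the fractions, 5 of 6 and 6 of 6 being lower in RFP-positive samples with no overlap. By the same rule 18.8% of all 13433 genes tested were higher and 21.6% lower. For the stromal marker Col3a1 the gap was narrow, with −0.53 on RFP-negative replicate 1 and −0.55 on RFP-positive replicate 1. The 6 markers of OP9 stroma were all well above background on every array, and their summed signal, in units of the 75th percentile, was 26.9 and 43.0 in RFP-negative and 22.0 and 21.3 in RFP-positive samples. For 6 adipocyte markers, also all measured on every array, the sums were 44.2 and 52.1 against 18.0 and 12.9. The part of these cells in the HoxB levels, and in the other differences below, was not tested. Of 4 markers each of pluripotent, neural and blood cells, 3 were measured on every array, while Zfp42, Pax6 and Hba-x, in that order, did not reach the mark on any. For the pluripotent list the sums were 582 and 485 against 502 and 404. For the neural list they were 21.8 and 27.7 against 18.1 and 19.7, and for the blood list 1.91 and 1.90 against 4.50 and 2.33. Any such sum is weighted to its brightest probes. The pluripotent sum was almost all Nanog. On RFP-negative replicate 1 Nanog stood at 9.18, Pou5f1 at 0.47 and Esrrb at −1.25. The neural sum was almost all Tubb3, at 4.76 on RFP-negative replicate 2, where Sox1 stood at −1.12. In the blood list Hbb-bh1 stood at 0.57 and 0.44 on the RFP-negative and at 1.92 and 0.0049 on the RFP-positive arrays. Only 1 marker of that list, Gata1, was higher in RFP-positive samples without overlap. The pluripotent, neural and blood sums are therefore not read as the content of such cells. In such bulk samples fewer cells of a type and less RNA per cell cannot be told apart.

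**Figure D1:**
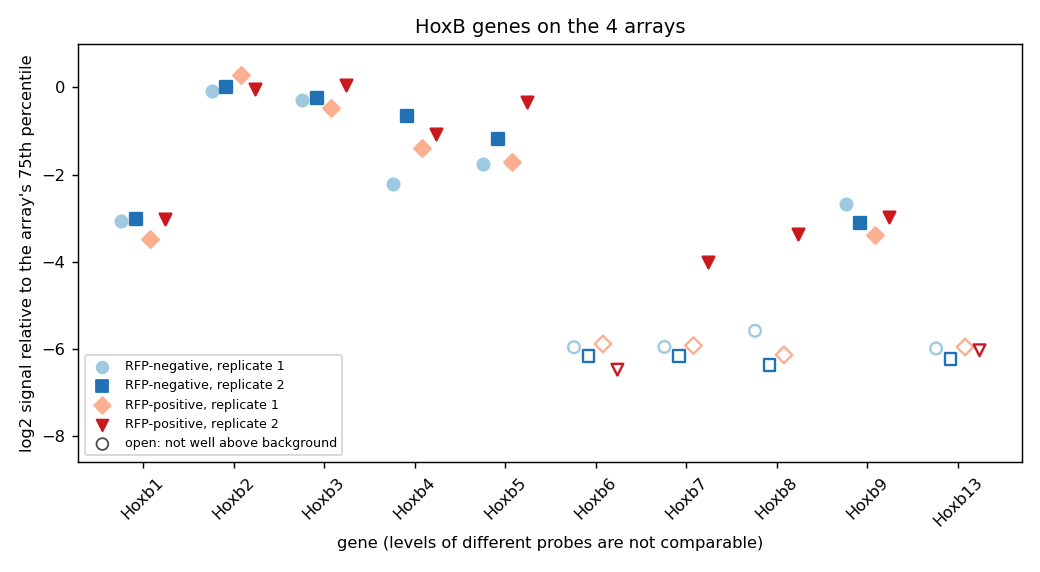
Log2 of the signal over the array's 75th percentile for the probe used for each of the 10 HoxB genes, on each of the 4 arrays, with open symbols where the probe was not well above background. Hoxb1 to Hoxb5 and Hoxb9 have 4 filled symbols each, Hoxb7 and Hoxb8 have 1, from RFP-positive replicate 2, and Hoxb6 and Hoxb13 have none.

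The low-numbered end came first. Hoxb1, which sets the identity of a hindbrain segment and is also active in early cardiac progenitors, was at −3.08 and −3.02 in RFP-negative replicates 1 and 2 and at −3.47 and −3.02 in RFP-positive replicates 1 and 2. RFP-positive replicate 1 was the lowest array, and the other 3 lay close together. This was the 1 HoxB gene printed on 10 spots, so its error within an array could be read. The SD over spots was 0.248 on 9 spots and 0.298 on 10 spots of the RFP-negative arrays, and 0.177 and 0.214 on 10 spots each of the RFP-positive arrays. RFP-positive replicate 1, on which 8 of 10 spots were well above background, lay further from the other arrays than the SD over spots of any array. The fitted difference was −0.20 (SE 0.27, 95% interval −0.90 to 0.50, limma adjusted p 0.836), and it was −0.43 without RFP-positive replicate 2 and 0.028 without RFP-positive replicate 1.

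Hoxb2, a hindbrain gene downstream of Hoxb1 and Egr2, read −0.08 and 0.00 in RFP-negative and 0.29 and −0.04 in RFP-positive cells. RFP-positive replicate 1 was the highest array here, where it had been the lowest for Hoxb1, and the fractions overlapped. With means of −0.04 ± 0.06 and 0.13 ± 0.24 (n = 2 each), Hoxb2 differed by 0.16 (SE 0.25, 95% interval −0.48 to 0.81, limma adjusted p 0.855). It differed by 0.33 without RFP-positive replicate 2 and by −0.0020 without RFP-positive replicate 1.

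Hoxb3, which acts in the hindbrain and pharyngeal arches, had 2 probes of 1 spot each, assigned to the same transcript. The brighter one, A_52_P312467, gave −0.29 and −0.25 for RFP-negative and −0.47 and 0.05 for RFP-positive cells, with both the lowest and the highest array in the RFP-positive fraction. The other, A_51_P460643, gave −1.31 and −1.91 against −1.93 and −2.31, so that its fractions did not overlap. The probes therefore disagreed in sign. The brighter differed by 0.06 (SE 0.28, 95% interval −0.67 to 0.79, limma unadjusted p 0.845, adjusted p 0.952). The dimmer, fitted in its place, differed by −0.51 (SE 0.32, limma unadjusted p 0.177, adjusted p 0.750), and neither passed the threshold. Their mean differed by −0.22. The disagreement was widest on RFP-positive replicate 2, the highest array of the first probe and the lowest of the second, and without that array the brighter probe differed by −0.21.

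**Figure D2:**
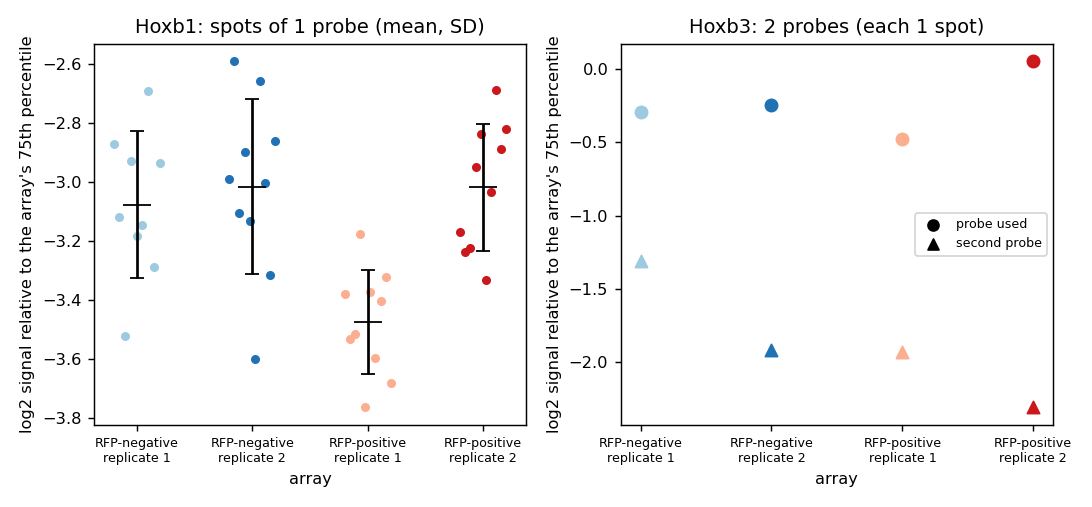
Log2 of the signal over the array's 75th percentile by array, for the spots of the Hoxb1 probe (left, black bars are the mean and SD over spots) and for the 2 Hoxb3 probes (right). The Hoxb1 spots of an array spread with an SD of 0.177 to 0.298, and the 2 Hoxb3 probes move in opposite directions on RFP-positive replicate 2.

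Hoxb4 varied most over the arrays among the 6 measured genes. It read −2.22 in RFP-negative replicate 1 and −0.65 in RFP-negative replicate 2, with the RFP-positive values of −1.40 and −1.06 between them. The lowest and the highest array were thus both RFP-negative. Its range of 1.57 was wider than that of 91.9% of the 12422 genes well above background on all 4 arrays. Hoxb4 had means of −1.44 ± 1.11 and −1.23 ± 0.24 (n = 2 each) and a difference of 0.21 (SE 0.56, 95% interval −1.26 to 1.68, limma adjusted p 0.916). Without RFP-negative replicate 1 it differed by −0.57, without RFP-negative replicate 2 by 0.996 and without RFP-positive replicate 2 by 0.043.

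Hoxb5, whose protein is known to activate Kdr and whose reporter marks long-lived blood stem cells in adult mice, read −1.77 and −1.18 in RFP-negative and −1.72 and −0.32 in RFP-positive cells. RFP-positive replicate 2 was the highest array, and RFP-positive replicate 1 lay beside the lowest. Its range of 1.44 was wider than that of 89.5% of the same 12422 genes. The means were −1.47 ± 0.41 and −1.02 ± 0.99 (n = 2 each), and the difference was 0.45 (SE 0.54, limma adjusted p 0.821). As a fold this is 1.37, with a 95% interval of 0.518 to 3.62. Leaving out RFP-positive replicate 1 gave 1.15 (limma unadjusted p 0.0324, adjusted p 0.212), and leaving out RFP-positive replicate 2 gave −0.24.

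The middle of the cluster, Hoxb6 to Hoxb8, was at or near background. Hoxb6, the gene of the reporter, had processed signals of 2.93 and 2.89 in RFP-negative and 3.47 and 2.79 in RFP-positive cells, which are levels of −5.97, −6.17, −5.89 and −6.48. Values that are not well above background have no order. The spot's median brightness exceeded its local background by 14, 15.5, 18 and 16 units on the 4 arrays. No Hoxb6 level was measured in either fraction, so the sort could not be checked with this probe.

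Hoxb7, which is known for effects on vessel growth and for its activity in the ureteric bud, had signals of 2.94 and 2.88 in RFP-negative and 3.38 and 15.4 in RFP-positive cells. Only the last, at a level of −4.02, was well above background. The brightness over local background was 17.5, 23, 18 and 33 units. Under normexp background correction, with an offset of 50, the 4 arrays read −1.98, −2.04, −2.09 and −2.02. That offset exceeds the brightness over local background on every array and so draws dim values together. This scale therefore cannot tell whether Hoxb7 was higher on RFP-positive replicate 2.

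Hoxb8, known for holding myeloid progenitors in a dividing state, behaved much like it. Its signals were 3.80 and 2.51 in RFP-negative and 2.92 and 24.1 in RFP-positive cells, and only RFP-positive replicate 2, at a level of −3.37, was well above background. Over local background the spot was brighter by 27, 21, 16 and 50 units. Under normexp it read −1.78, −2.08, −2.13 and −1.73, with RFP-positive replicate 2 and RFP-negative replicate 1 together at the top. The offset draws these dim values together as well. The scanner's milder mark, of a signal positive and significant over background, was also set on RFP-negative replicate 1. Neither Hoxb7 nor Hoxb8 was tested, since a gene had to be well above background on both arrays of a fraction. Of all 20654 genes, 489 (2.37%) passed the mark on RFP-positive replicate 2 alone, against 116 on RFP-positive replicate 1 alone, 198 on RFP-negative replicate 1 alone and 415 on RFP-negative replicate 2 alone.

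At the high-numbered end, Hoxb9, which patterns the thoracic skeleton together with its paralogues, was measured on every array, at −2.68 and −3.11 in RFP-negative and −3.39 and −2.98 in RFP-positive cells. The highest array was RFP-negative and the lowest RFP-positive, with the other 2 between them. Its means were −2.90 ± 0.30 and −3.19 ± 0.29 (n = 2 each), with a difference of −0.29 (SE 0.29, 95% interval −1.05 to 0.47, limma adjusted p 0.803). Hoxb9 was the 1 gene of the 6 whose sign was kept in all 14 alternatives run on it, those without 1 array included, and it differed by −0.50 without RFP-positive replicate 2 and also without RFP-negative replicate 2. Its size shrank to −0.078 without RFP-negative replicate 1 and to −0.084 without RFP-positive replicate 1. Hoxb13, a gene of the tail bud and prostate that lies apart from the rest of the cluster, had signals of 2.87 and 2.77 in RFP-negative and 3.31 and 3.80 in RFP-positive cells. None was well above background, though the milder mark was set on RFP-positive replicate 2.

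The comparison of the fractions asked whether other genes of the cluster went with the Hoxb6 reporter. With limma, 0 of the 6 HoxB genes tested passed an adjusted p of 0.05, and 0 had an unadjusted p under 0.05. Over all 13433 genes the shares were 0% and 6.49%. By the probe used, no HoxB gene had both RFP-positive arrays above both RFP-negative arrays, as 18.8% of all genes tested had. None had both below, as 21.6% had, although the dimmer Hoxb3 probe did. By size, 0 of 6 had every RFP-positive array at least 2-fold from every RFP-negative array, against 1.36% of all genes. The median difference was 0.11 for the 6 genes and −0.05 over all genes. It turned to −0.02 without RFP-negative replicate 1 and with either other treatment of the Hoxb3 probes, and to −0.23 without RFP-positive replicate 2. The intervals show what 2 arrays per fraction leave possible. That of Hoxb2 reached from −0.48 to 0.81, while those of Hoxb4 and Hoxb5 included a difference of 1, a 2-fold change, upward, and those of Hoxb4 and Hoxb9 included one downward.

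**Figure D3:**
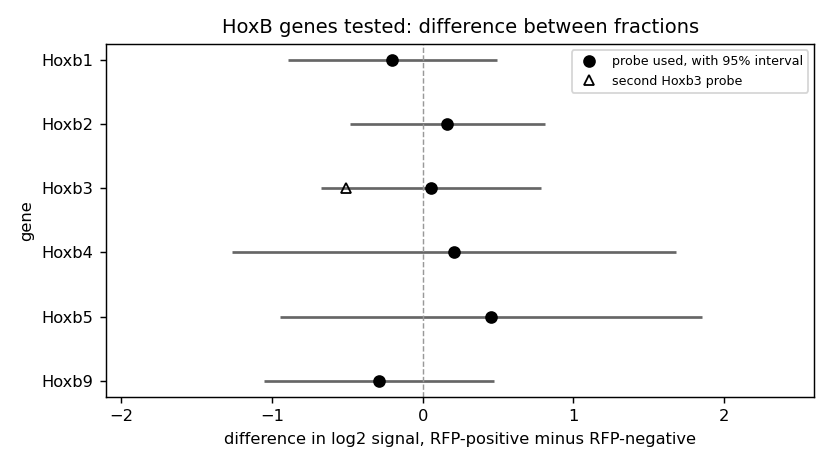
Fitted difference in log2 signal, RFP-positive minus RFP-negative (2 arrays each), for the 6 HoxB genes tested, with 95% intervals from the limma fit, and the second Hoxb3 probe as an open triangle. All 6 intervals include 0, and those of Hoxb4 and Hoxb5 are the widest.

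Read array by array, the HoxB genes did not move as a block with the fraction. Relative to each gene's own mean over the arrays, the median of the 6 genes was −0.09 and 0.03 on the RFP-negative and −0.28 and 0.20 on the RFP-positive arrays. For all 12422 genes measured on every array these medians were 0.03, 0.01, 0.04 and −0.07. RFP-positive replicate 2 was above the gene's own mean for 5 of 6, Hoxb2 being the exception, and RFP-positive replicate 1 was above it for 1 of 6, again Hoxb2. The 2 RFP-positive arrays thus lay on opposite sides of the gene's mean for 6 of 6 genes. The lowest array was RFP-negative replicate 1 for 3 genes and RFP-positive replicate 1 for the other 3. RFP-positive replicate 2 was the highest array for 2 of the 6, and for 29.6% of all 12422 genes. The shares of all genes above their own mean, on opposite sides of it or lowest on an array were not counted. These counts are therefore not read as a trait of the HoxB genes.

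**Figure D4:**
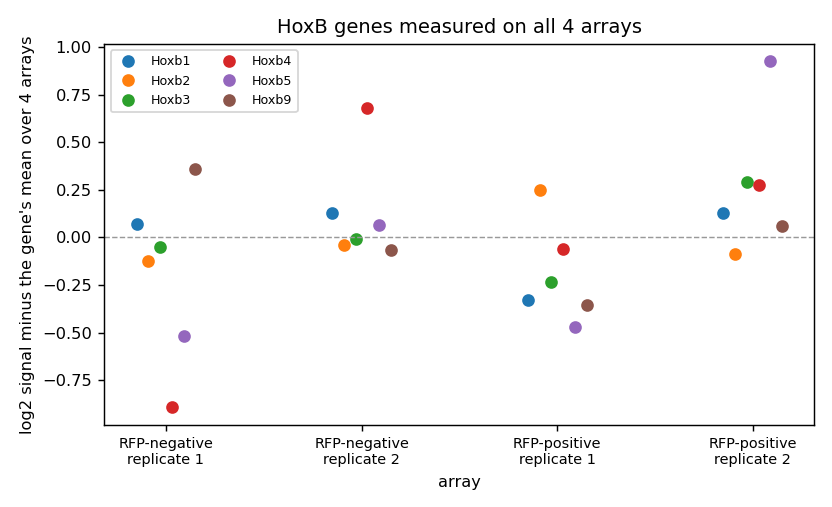
Log2 signal minus the gene's mean over the 4 arrays, for the 6 HoxB genes measured on every array. On RFP-positive replicate 2, 5 of 6 points lie above 0, and on RFP-positive replicate 1, 5 of 6 lie below it, while Hoxb4 and Hoxb5 spread most.

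Likeness between genes was measured as the root mean square distance of their values over the 4 arrays, each gene's mean taken off. Among the 11 other Hox genes measured on every array, the gene nearest to Hoxb1 was Hoxb3, at 0.131, and to Hoxb9 it was Hoxb1, at 0.179. Hoxb2 was nearest to Hoxa7, at 0.214, and Hoxb4 to Hoxd12, at 0.422. For Hoxb4, the gene of widest range, the nearest of 11979 genes were D4Ertd617e, B3gat2 and Nfkbie, at 0.0671, 0.0990 and 0.105. All 3 had their lowest value in RFP-negative replicate 1 and their highest in RFP-negative replicate 2. With 4 arrays from 1 slide these distances are a description.

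HoxB detection was then set beside the other Hox clusters. Of 10 HoxB genes, 6 were well above background on all 4 arrays and 2 on none, against 60.1% and 26.7% of all genes with a probe. In paralogue groups 1 to 5, 5 of 5 HoxB genes but 3 of 10 in HoxA, HoxC and HoxD were measured on every array. In groups 6 to 8 the counts were 0 of 3 and 1 of 5, in group 9 they were 1 of 1 and 0 of 3, and in groups 10 to 13 they were 0 of 1 and 2 of 11. The difference between clusters was not tested. These counts set different probes side by side, so they are not read as a difference in expression between clusters. A gene short of the mark, as Hoxb6 was even in RFP-positive cells, is not read as silent. The ranges of paralogue groups were not part of the planned design and part where HoxB detection changes. Hoxa4 and Hoxa5, paralogues of Hoxb4 and Hoxb5, were well above background on 0 arrays. Of the 21 paralogues of HoxB genes, 9 were tested and 0 passed the limma threshold, with an unadjusted p under 0.05 for 3, and their fractions did not overlap for 1 that was higher, Hoxc4, and 3 that were lower. Hoxc4 was at −0.37 and −0.70 in RFP-positive cells and not well above background in RFP-negative cells. Hoxc4, and Hoxc8 and Hoxd1 among the lower ones, entered the test through 1 fraction alone, a filter that favours a difference. Hoxd1 was also marked on RFP-positive replicate 1. The lack of overlap of Hoxc4, Hoxc8 and Hoxd1 is therefore not read as a result. The remaining lower paralogue was well above background on every array, and it too did not pass the limma threshold.

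**Figure D5:**
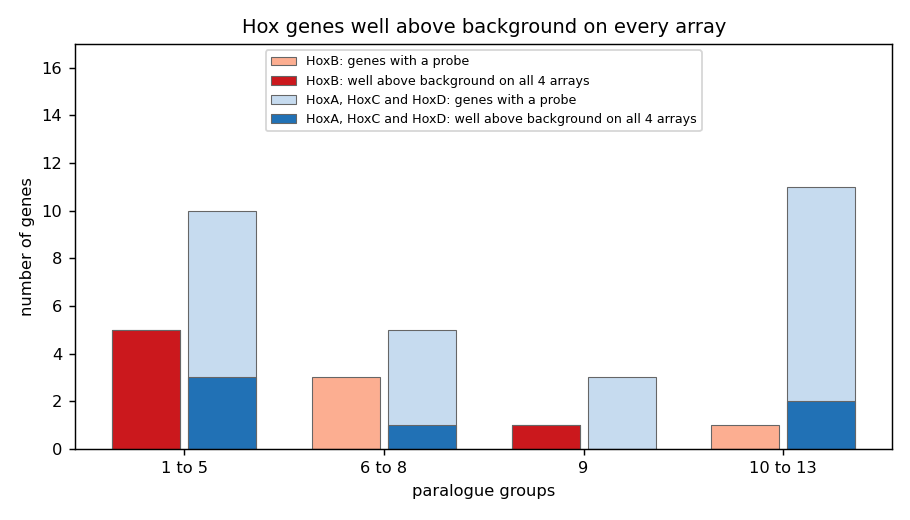
Number of genes with a probe (pale bars) and of genes well above background on all 4 arrays (dark bars), by range of paralogue groups, for HoxB and for HoxA, HoxC and HoxD together. In groups 1 to 5 the dark bar reaches 5 of 5 for HoxB and 3 of 10 for the other clusters.

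Genes that act on the clusters were read from lists. Of 19 upstream regulators 18 had a probe, 13 were tested and 0 passed. The fractions did not overlap for 2 that were higher, Gdf11 and Rarb, and 1 that was lower, Rxra. Over all genes tested 18.8% were higher and 21.6% lower by this rule, so the counts are not read as a trait of the list. Rarb, a retinoic acid receptor and itself a retinoic acid target, read −1.50 and −1.40 in RFP-negative and −1.02 and 0.26 in RFP-positive cells, a difference of 1.07 (limma adjusted p 0.745) that was 0.43 without RFP-positive replicate 2. Gdf11, a ligand that shifts the axial position of Hox expression, differed by 0.71, and by 0.39 without that array, and Rxra differed by −0.37, each with a limma unadjusted p above 0.05. The Cdx genes, which drive central and posterior Hox genes, were mostly at background. Cdx2 was well above it on no array, and Cdx1 and Cdx4 on RFP-positive replicate 2 alone. For Cdx1 this rests on the mark, since its level was −4.09 on RFP-positive replicate 1 and −4.37 on RFP-positive replicate 2. Cdx4 read −4.48 and −6.12 in RFP-negative and −5.84 and −3.55 in RFP-positive cells, with RFP-positive replicate 2 the highest array.

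All 10 genes for polycomb proteins and histone demethylases were tested and 0 passed. Without overlap 3 were higher and 3 lower, beside 18.8% and 21.6% of all genes tested. Neither these counts nor those of the next 2 lists were tested against that share. Bmi1, a polycomb subunit, had the smallest p and differed by 0.82 (limma unadjusted p 0.0451, adjusted p 0.745), and by 0.54 without RFP-positive replicate 2. Kdm6b and Kdm6a, which remove the polycomb mark, differed by −0.57 and 0.57, and Cbx2 by −0.30. Kdm6a entered the test through the RFP-positive fraction alone, since it was not well above background on RFP-negative replicate 1. Without that array it differed by 0.072. Without RFP-positive replicate 2 Kdm6b differed by −0.91. Among the TALE proteins, which bind DNA together with Hox proteins, 9 had a probe, 8 were tested and 0 passed, with 1 higher and 3 lower without overlap. Meis2 differed by 0.49, Pbx2 by −0.38 and Pknox1 by −0.45. The 7 genes beside the cluster that had a probe, of 14 listed, were all measured, and 0 passed. Of these Nfe2l1 was lower without overlap, at −0.30, and Ttll6, Ube2z and Atp5g1 differed by −0.64, −0.23 and −0.21 with overlap. Without RFP-positive replicate 2 those 3 differed by 0.40, −0.068 and −0.099.

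Of 8 regulators and surface genes of blood and vessel progenitors, 8 were tested, 0 passed, 6 were higher without overlap and 0 lower. The median difference of the 8 was 0.34. For Cdh5, Pecam1 and Kdr the gap between the fractions was narrow. The nearest RFP-negative and RFP-positive arrays stood at 3.755 and 3.761, at 1.756 and 1.778, and at 4.33 and 4.36, in that order. Runx1, needed for definitive blood, read −2.65 and −3.05 in RFP-negative and −1.58 and −1.04 in RFP-positive cells, a difference of 1.54 (limma adjusted p 0.635). Gata1, an erythroid factor, differed by 1.44, and by 0.85 without RFP-positive replicate 2. Cdh5, of endothelial junctions, differed by 0.53, and by only 0.061 without that array. Tal1, an early blood factor, differed by 0.39. The stromal and adipocyte marker sums given above were lower in the RFP-positive fraction, where these genes were higher. The shares for all genes, given above for the same rules, are 18.8% higher and 21.6% lower.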

How the data were processed

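Total RNA of the sorted cells was labelled with Cy3, per the labels' protocols, and the samples were grouped by reporter status. The deposited values are intensity, as processed by the scanner software, Agilent Feature Extraction (per the file headers, version 10.10.1.1). The deposited marks well above background, outlier and saturated are 0 or 1 (unit: other) and were used as filters. The deposited value table is intensity too, each array's processed signals times 1 constant between 5.39 and 6.45, with column medians of 133.9 to 143.9 and of unstated origin. All arrays lay on 1 slide and in 1 scan.

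Control spots and outlier spots (115 to 153 per array) were left out. Each signal was divided by the 75th percentile of its array and put on the log2 scale, and spots of a probe were averaged. Of 55681 probes, 27235 had 1 symbol through the RefSeq table of GRCm38.p6, 0 several and 28446 none, and the probe of highest mean stood for a gene. A gene was tested if well above background on both arrays of a fraction. limma 3.58.1 in R 4.3.3 (lmFit, eBayes, 2 residual and 2.77 prior degrees of freedom) was used two-sided with Benjamini-Hochberg adjustment over 13433 genes and a threshold of 0.05. Normexp used median signals, as the files hold no mean signal. The fit was tested on simulated data. Named genes are all HoxB genes, up to 4 of smallest p per list, and the nearest genes by distance over the arrays; genes of other clusters, Cdx genes and markers are named beside them for what they bear on. A few genes that the rule selects count in totals but are not reported here. The HoxB genes, the lists and the motifs were chosen with earlier results of these data known. Promoter sequences are RefSeq's. The alternatives tried were other scalings, background correction, the value table, probe rules, filters, eBayes options, a replicate block, other marks of detection, and each array left out. Python 3.11.15, pandas 2.3.3 and matplotlib 3.10.9 were used.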

Additional observations from a re-analysis of the deposited data

How the results depend on the processing

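Over 85 combinations of a HoxB gene and an alternative, 0 passed an adjusted p of 0.05 with limma (lowest adjusted p 0.212), and 7 turned the sign. For Hoxb3 the mean of its probes gave −0.22 and the dimmer probe −0.51, because the probes disagree. With 1 array left out, so that the lone array of a fraction is assumed to vary like the others, Hoxb1 ran from −0.43 to 0.028, Hoxb2 from −0.0020 to 0.33, Hoxb3 from −0.21 to 0.32, Hoxb4 from −0.57 to 0.996, Hoxb5 from −0.24 to 1.15 and Hoxb9 from −0.50 to −0.078. The median difference of the 6 genes, 0.11, was 0.20 under median scaling, −0.018 with the mean of probes or the dimmer probe, and −0.23 to 0.17 with 1 array left out. HoxB genes whose fractions do not overlap were 0 in the main setting. There was 1 under median scaling (Hoxb2), normexp (Hoxb1), the mean of probes and the dimmer probe (Hoxb3), and no filter (Hoxb7), and there were 2 to 4 with 1 array left out. Over all genes, the 5418 genes without overlap became 8775 to 10925 with 1 array left out. Median scaling changed their split from 2521 higher and 2897 lower to 3275 higher and 2228 lower. The 183 genes at least 2-fold apart became 12 under normexp, 335 with no filter, 57 with the filter on all 4 arrays, and 383 to 1471 with 1 array left out. With the replicate number as a block, 0 genes passed and 1039 had an unadjusted p under 0.05, against 872 without it; same-numbered arrays deviated with a correlation of 0.0922, so the numbers were not taken as pairs. The 6 HoxB genes measured on all 4 arrays were the same number by both other marks of detection. Of 20 genes named from the 5 other lists, 15 kept their sign in every alternative run and 5 did not, among them Ttll6, which turned without RFP-positive replicate 2, Kdm6a under normexp and Atp5g1 without RFP-negative replicate 1. The number of arrays limits the precision, and signal near background limits Hoxb6, Hoxb7, Hoxb8 and Hoxb13.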
